A study of Mus musculus with 4 samples.

Results

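The genes followed here code for cytokines and growth factors of liver regeneration: Hgf, Areg, Il6, Osm, Tnf and Tgfb1. They were chosen by name, as 6 of 32344 listed gene entries, of which 15892 had a count and a current probe. The study sorted CD45+ (leukocyte) cells from mouse liver after tamoxifen for 1 week, with 5 mice pooled per library. The groups were GS(+/delta)Hep, a heterozygous deletion of glutamine synthetase in hepatocytes (1 library), URI(+/delta)Hep, a heterozygous deletion of the chaperone URI in hepatocytes (1 library), and WT (2 libraries). Every group received tamoxifen, the driver of the deletion is not given in the sources used here, and the deleted cells are not among the CD45+ cells profiled. Each library is thus 1 pool, and mice within a pool cannot be compared. Transcripts were read with hybridised probe pairs and counted as unique molecular identifiers (UMIs), in barcodes of at least 500 UMIs. Levels are given as CPM, the UMIs of a gene per 1000000 UMIs of the same lineage and library. Probes differ in efficiency, so levels are compared within a gene and not between genes.

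After liver injury or partial hepatectomy, leukocytes and other non-parenchymal cells release signals that prime hepatocytes to re-enter the cell cycle. Tnf and Il6 are the classical priming cytokines, and Osm, a relative of Il6, uses the same signalling subunit and the STAT3 pathway. Hgf is the ligand of the receptor Met and a strong hepatocyte mitogen, known in liver mainly from stellate and endothelial cells, while Areg stimulates the Egf receptor. Tgfb1 opposes them by restraining hepatocyte proliferation.

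The libraries held 39451266 UMIs (GS), 51920505 (URI), 37783065 (WT library 1) and 24041049 (WT library 2), in 7453 to 9096 barcodes with medians of 2659 to 4973 UMIs. No full barcode was shared between libraries. The droplet part of the barcode was shared by 1480 to 2076 barcodes in a pair of libraries, which were multiplexed before encapsulation. WT library 2 stood apart. Of 7799 genes with at least 20 CPM on average, 7.58% lay over 2-fold apart between the WT libraries (591 genes), against 21 genes between the GS and URI libraries. Neutrophils made up 16.3% of barcodes in WT library 2, against 7.57% to 8.27% in the other libraries. Lists of markers of liver cells outside the CD45+ gate summed, over all barcodes, to 2.68 to 20.8 CPM for 5 hepatocyte genes and 1.52 to 3.19 CPM for 6 stellate cell and fibroblast genes. Kupffer cell genes, also 5, summed to 0.22 to 0.81 CPM, so transcripts of resident macrophages were close to absent.

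Lineages were gated on raw marker UMIs, with none of the 6 genes used. A barcode needed at least 2 different markers of a lineage, and basophils needed Gata2 and Ms4a2 together. Basophils numbered 26 (GS), 38 (URI), 42 and 17 (WT libraries 1 and 2), or 0.331%, 0.418%, 0.495% and 0.228% of barcodes. At least 3 of 6 basophil genes outside the gate (Mcpt8, Cpa3, Cd200r3, Fcer1a, Il4 and Hdc) were found in 25 of 26, 35 of 38, 42 of 42 and 14 of 17 of them. Mast cell markers were at 0 in the basophil sums of 3 libraries and came from 1 barcode in the URI library. Kupffer cell and stellate cell genes were at 0 in all 4 basophil sums, as were the neutrophil markers Mmp8, Mmp9 and Ly6g. The shared myeloid receptor Cxcr2 was found there, and with it the neutrophil gate list summed to 827, 756, 949 and 296 CPM in basophils. All of these neutrophil markers belong to the neutrophil gate. A basophil with 2 of them met both gates and was left out, so the absence of Mmp8, Mmp9 and Ly6g is set in part by the gates. Barcodes with Gata2 and Ms4a2 that were left out because they met another gate numbered 11, 28, 12 and 9. Neutrophils numbered 642 to 1218 barcodes a library, monocytes 41 to 102, T cells 1992 to 3441, T cells with NK markers 86 to 424, NK cells 580 to 839 and B cells 1225 to 1944. Barcodes that met 2 other gates (13.7% to 17.5%) were left out as multi-lineage, and 2.70% to 6.78% met none. Monocytes numbered 41 (GS), 83 (URI), 57 and 102 (WT libraries 1 and 2) under these gates. With multi-lineage barcodes assigned to the lineage whose markers they matched best, monocytes numbered 109, 200, 131 and 229. With at least 3 markers a gate they numbered 79, 150, 104 and 167.

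The bases upstream of Hgf, Il6 and Tnf are shown so that the promoters of genes highest in basophils (Hgf, Il6) can be set beside that of a gene highest in monocytes (Tnf). Each window holds the 250 bases before a RefSeq start in GRCm38.p6, written 5′ to 3′ on the strand of the gene, with letters that match a searched motif in capitals. The table held 5 of the 6 genes, all but Osm. The Hgf window lies at chr5:16553245-16553494 (plus strand), the Il6 window at chr5:30012864-30013113 (plus strand) and the Tnf window at chr17:35202008-35202257 (minus strand). Another Hgf start, with its window at chr5:16553651-16553900, is not printed, and that window held no match to the motifs below.
Hgf: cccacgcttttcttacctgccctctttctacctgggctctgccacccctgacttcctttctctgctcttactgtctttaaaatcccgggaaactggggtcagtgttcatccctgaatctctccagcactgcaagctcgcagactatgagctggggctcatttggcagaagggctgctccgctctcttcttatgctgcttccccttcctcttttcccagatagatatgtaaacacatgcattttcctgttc
Il6: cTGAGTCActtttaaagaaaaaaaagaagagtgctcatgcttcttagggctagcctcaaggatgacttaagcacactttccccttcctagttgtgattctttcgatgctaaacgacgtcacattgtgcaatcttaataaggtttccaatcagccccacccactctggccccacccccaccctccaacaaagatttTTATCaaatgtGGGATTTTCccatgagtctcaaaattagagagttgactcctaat
Tnf: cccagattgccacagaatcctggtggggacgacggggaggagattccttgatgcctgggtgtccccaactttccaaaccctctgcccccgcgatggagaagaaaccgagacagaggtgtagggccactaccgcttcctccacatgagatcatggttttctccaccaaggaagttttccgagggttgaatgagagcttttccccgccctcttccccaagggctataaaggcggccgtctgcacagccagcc
Motifs were searched on both strands as GATAA (GATA factors), TTCNNNGAA (STAT), GGGANTTTC (NF-kB) and TGANTCA (AP-1). Only the Il6 window among those of the 5 genes held a match. In the Il6 window the AP-1 match begins at base -249 from the start. The GATA match, on the other strand, begins at base -55 and the NF-kB match at base -44, and none of them overlap. The same letters were found in 22.6% (GATA), 7.02% (STAT), 0.941% (NF-kB) and 6.75% (AP-1) of 32841 promoters of this length. A match describes the letters only, and binding was not measured.

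Hgf (chr5:16553495-16620152, plus strand), which encodes hepatocyte growth factor, was highest in basophils. Basophils held 1504 CPM in the GS library, 1180.4 CPM in the URI library, and 1471 and 778 CPM in WT libraries 1 and 2. Neutrophils held 28.3, 24.7, 24.9 and 25.6 CPM in the same order, and monocytes 26.5, 43.9, 40.6 and 10.7 CPM. The lowest basophil value was thus above every value of the other lineages, with no overlap. T cells (0.44 to 0.66 CPM) and B cells (0.22 to 2.06 CPM) lay below the free RNA of barcodes under 100 UMIs, which held 11.4 to 18.9 CPM. Basophils exceeded the mean of the 6 other lineages by 9.46 on the log2 scale (SE 0.16, adjusted p = 1.27e-28), by edgeR's quasi-likelihood test on the 4 libraries with Benjamini-Hochberg adjustment over 11095 genes. Against monocytes alone the difference was 5.44 on the log2 scale. With TMM scaling, described below, all 5 genes that could be tested were called higher in basophils, where 16.0% of all genes were called higher. The Tgfb1 call was lost without scaling (log2 difference 0.34, edgeR adjusted p = 0.0631). The Tnf call rests on 3 (GS), 5 (URI), 8 and 6 (WT libraries 1 and 2) basophils with a Tnf UMI. The 6 genes were chosen with earlier results of these data known, so the count is a description.

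Basophils carried 48.9% (GS), 38.1% (URI), 54.6% and 18.3% (WT libraries 1 and 2) of all Hgf UMIs, although they were under 1 in 100 barcodes. Neutrophils, which are more numerous, carried 16.1%, 13.2%, 10.2% and 33.9%, and multi-lineage barcodes 26.7%, 36.3%, 22.8% and 33.9%. In WT library 2 basophils gave a smaller share of Hgf than neutrophils. That library had the fewest basophils, the most neutrophils, the lowest basophil Hgf level and the lowest basophil depth, whose parts were not tested. At least 1 Hgf UMI was found in 96.2%, 89.5%, 97.6% and 70.6% of basophils, at medians of 5070.5, 5777, 4540.5 and 3077 UMIs per barcode. The share in B cells, where Hgf was close to 0, was 0.05% to 0.46%, at medians of 3675, 4083, 2763 and 2044 UMIs. Hgf was spread over the basophils, with medians of 6, 6, 6 and 2 UMIs per barcode. The 3 richest barcodes held 30.0% (GS), 26.6% (URI), 20.1% and 50.0% (WT libraries 1 and 2) of basophil Hgf.

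Neutrophil Hgf was low but above the lymphocytes, at 5.77 on the log2 scale (SE 0.27) over the mean of the 5 other lineages without basophils (edgeR adjusted p = 1.25e-16). Monocyte Hgf was likewise higher, by 4.82 (SE 0.43, edgeR adjusted p = 3.65e-10). Neutrophil Hgf (24.7 to 28.3 CPM) lay above free RNA (11.4 to 18.9 CPM), while monocyte Hgf in WT library 2 (10.7 CPM) lay below it. The part of free RNA in these low levels was not tested. Which of these lineages ranked second depended on scaling. Monocytes minus neutrophils was -0.73 (edgeR adjusted p = 0.0266) with TMM scaling and 0.24 (edgeR adjusted p = 0.496) without it. TMM, which assumes that most genes do not differ, moved the median of all genes by 1.13 for neutrophils, -0.38 for T cells and 0.15 for basophils on the log2 scale. Differences in Hgf among B cells, T cells, NK cells and T cells with NK markers did not pass the threshold.

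**Figure D1:**
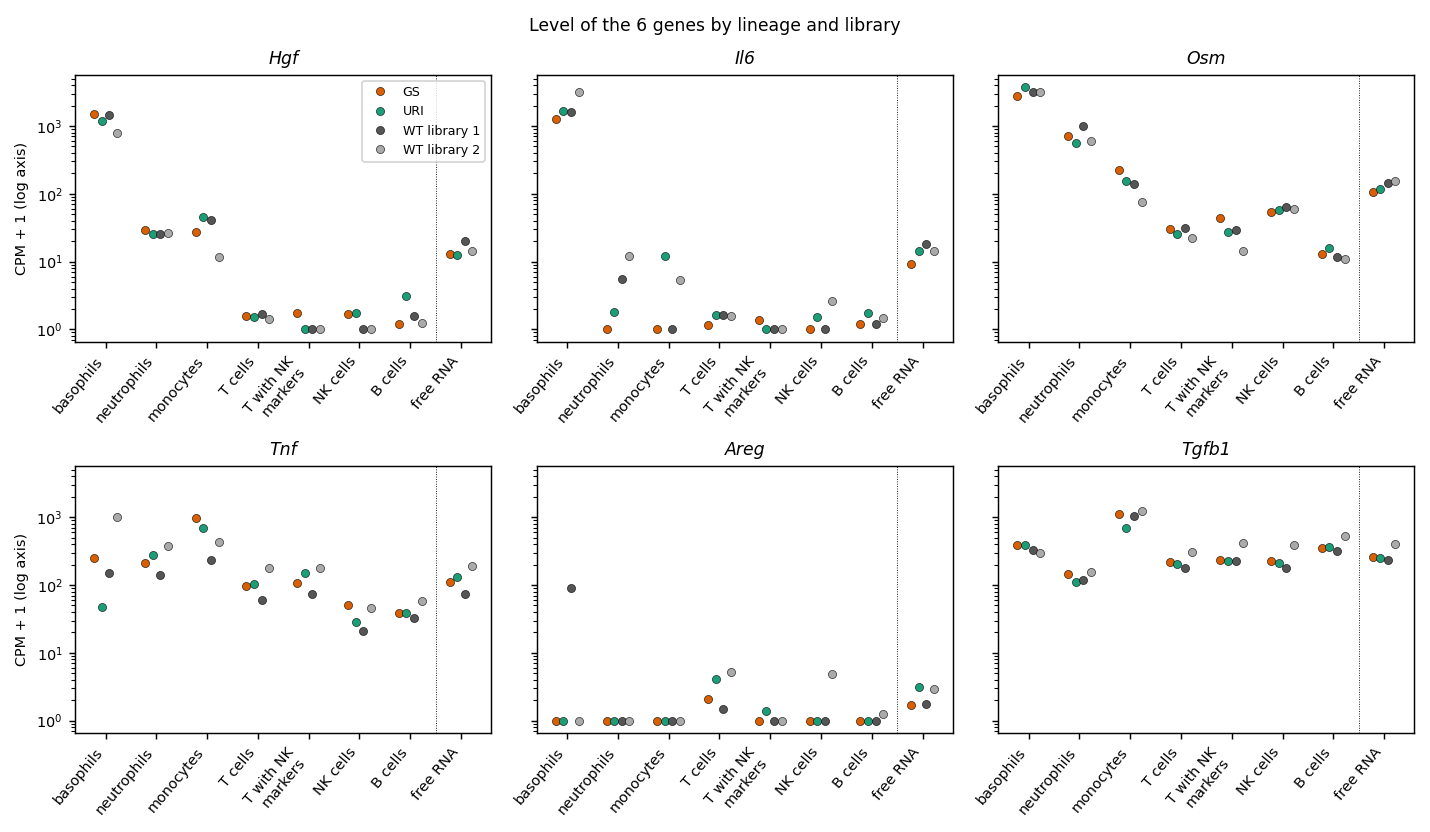
Level of each of the 6 genes (CPM + 1, log axis) in 7 lineages and in free RNA, with 1 point per library coloured by group. Hgf, Il6 and Osm points of basophils stand above those of every other lineage, while the highest Tgfb1 points belong to monocytes.

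Areg, the growth factor amphiregulin that signals through the Egf receptor (chr5:91139599-91148432, plus strand), was scarce. The whole libraries held 41 (GS), 82 (URI), 28 and 52 (WT libraries 1 and 2) Areg UMIs, in 16, 23, 7 and 23 barcodes. T cells held 19, 62, 8 and 28 of these UMIs. In WT library 1, 18 of the 28 UMIs came from 1 basophil barcode, so the basophil level there rests on that barcode. Neutrophils and monocytes had none in any library. Among Areg barcodes, the regulatory T cell factor Foxp3 was detected in 3 of 16, 12 of 23, 1 of 7 and 6 of 23, while 1.34% to 2.36% of all barcodes had Foxp3. Within the T cell gate, 0, 6, 0 and 3 barcodes held both Areg and Foxp3. The T cell and innate lymphoid factor Gata3 was detected in 14 of 16, 20 of 23, 4 of 7 and 13 of 23, against 21.6% to 32.9% of all barcodes. Il1rl1 was detected in 6, 7, 2 and 5 Areg barcodes, against 0.470% to 1.19% of all barcodes. At least 2 of the innate lymphoid list Gata3, Il1rl1, Rora, Il17rb and Il5 were detected in 10, 18, 3 and 10 Areg barcodes. Those barcodes held 34, 76, 21 and 29 of the Areg UMIs. The type of the Areg barcodes was not tested. With so few UMIs Areg did not pass the filter on low counts, and no lineage difference was tested.

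Il6, the priming cytokine that acts through Il6ra and gp130 (chr5:30013114-30019981, plus strand), was high in basophils and near 0 in the other gated lineages. Basophils held 1271 CPM (GS), 1669 CPM (URI), 1618 and 3166 CPM (WT libraries 1 and 2). Neutrophils held 0, 0.83, 4.45 and 11.2 CPM (GS, URI, WT libraries 1 and 2), and monocytes 0, 10.99, 0 and 4.30 CPM. Those values were no higher than the free RNA of the same libraries (8.33, 13.5, 17.4 and 13.4 CPM), and the basophil values did not overlap them. Basophil Il6 exceeded neutrophil Il6 by 8.14 on the log2 scale, and the mean of the 6 other lineages by 11.25 (SE 0.19, edgeR adjusted p = 1.27e-28). The second value depends on a prior count, since several lineages held fewer than 3 Il6 UMIs in a library.

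Basophils carried 66.0% (GS), 41.3% (URI), 75.1% and 41.1% (WT libraries 1 and 2) of all Il6 UMIs, and multi-lineage barcodes 30.1%, 49.9%, 13.5% and 28.1%. Counting every barcode with at least 3 of the 6 basophil genes outside the gate, whatever its lineage, 41, 67, 63 and 36 barcodes held 90.6%, 92.9%, 97.7% and 79.8% of Il6. The same barcodes held 61.6%, 60.6%, 77.2% and 40.9% of Hgf and 14.1%, 28.2%, 19.2% and 11.2% of Osm. Within each library, basophil Il6 was less evenly spread over barcodes than basophil Hgf. Il6 medians were 2, 2.5, 2.5 and 6 UMIs, and the richest barcode held 42, 97, 75 and 61. The 3 barcodes richest in Il6 held 58.6%, 46.4%, 48.9% and 61.4% of basophil Il6. The 3 richest in Hgf held 30.0%, 26.6%, 20.1% and 50.0% of basophil Hgf, and the gap was smallest in WT library 2. At least 1 Il6 UMI was found in 69.2%, 63.2%, 76.2% and 82.4% of basophils. Neutrophil Il6 was called higher than the mean of the lineages without basophils (log2 difference 3.63, SE 0.57, edgeR adjusted p = 2.19e-06), but lost that call without TMM scaling once basophils were in the fit (0.65, edgeR adjusted p = 0.195).

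**Figure D2:**
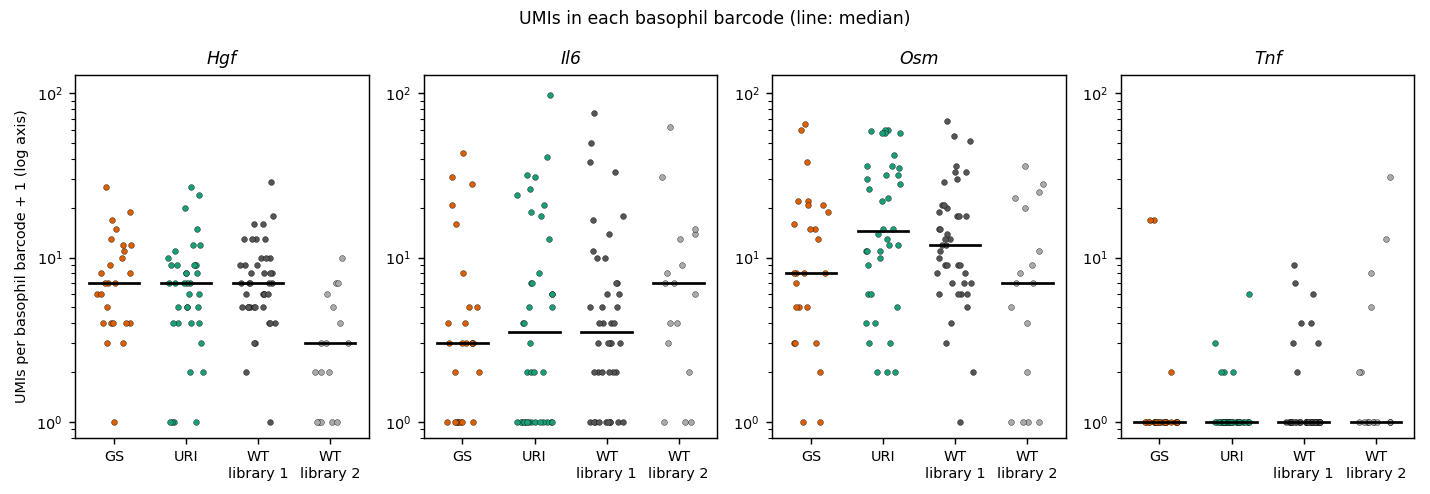
UMIs + 1 per basophil barcode (log axis) for Hgf, Il6, Osm and Tnf, 1 point per barcode and 1 column per library, with the line at the median. Hgf and Osm lie above 0 in most barcodes, Il6 ranges from 0 to 97 UMIs, and Tnf is at 0 in most.

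Osm, oncostatin M (chr11:4236420-4241026, plus strand), had its highest level in basophils and a broader source in neutrophils. Basophils held 2768 CPM (GS), 3799 CPM (URI), 3222 and 3185 CPM (WT libraries 1 and 2). Neutrophils held 710.4, 561, 992 and 593 CPM, and monocytes 225, 154, 139.6 and 75.2 CPM. The 3 lineages did not overlap, in the order basophils, neutrophils, monocytes in each of the 4 libraries. NK cells (53.3 to 62.8 CPM) were next, then T cells with NK markers (13.5 to 43.4 CPM), T cells (21.3 to 30.7 CPM) and B cells (10.0 to 14.7 CPM). Free RNA held 104, 118, 142 and 151 CPM of Osm, above every lymphocyte value and, in both WT libraries, above the monocyte value, and its part in those levels was not tested. Basophils exceeded neutrophils by 1.35 (edgeR adjusted p = 4.33e-07) with TMM scaling and by 2.20 without it. Neutrophils exceeded monocytes by 3.29, monocytes exceeded NK cells by 1.56, and NK cells exceeded T cells with NK markers by 1.03, all on the log2 scale. The difference between T cells with NK markers and T cells was 0.18 (edgeR adjusted p = 0.645).

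Neutrophils, more numerous than basophils and with a higher Osm level than the lymphocytes, carried the most Osm. They held 40.2% (GS), 35.2% (URI), 46.9% and 60.0% (WT libraries 1 and 2) of UMIs, against 8.94%, 14.4%, 13.8% and 5.72% in basophils. Osm was found in 52.7%, 56.5%, 59.5% and 47.5% of neutrophils, and in 2.09% to 4.68% of B cells. Basophils had it in 92.3%, 100%, 97.6% and 76.5% of barcodes. Against the mean of the other lineages, the log2 difference was 5.87 for basophils (SE 0.13, edgeR adjusted p = 2.16e-26). For neutrophils it was 5.45 without basophils in the fit (SE 0.11, edgeR adjusted p = 1.66e-24).

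**Figure D3:**
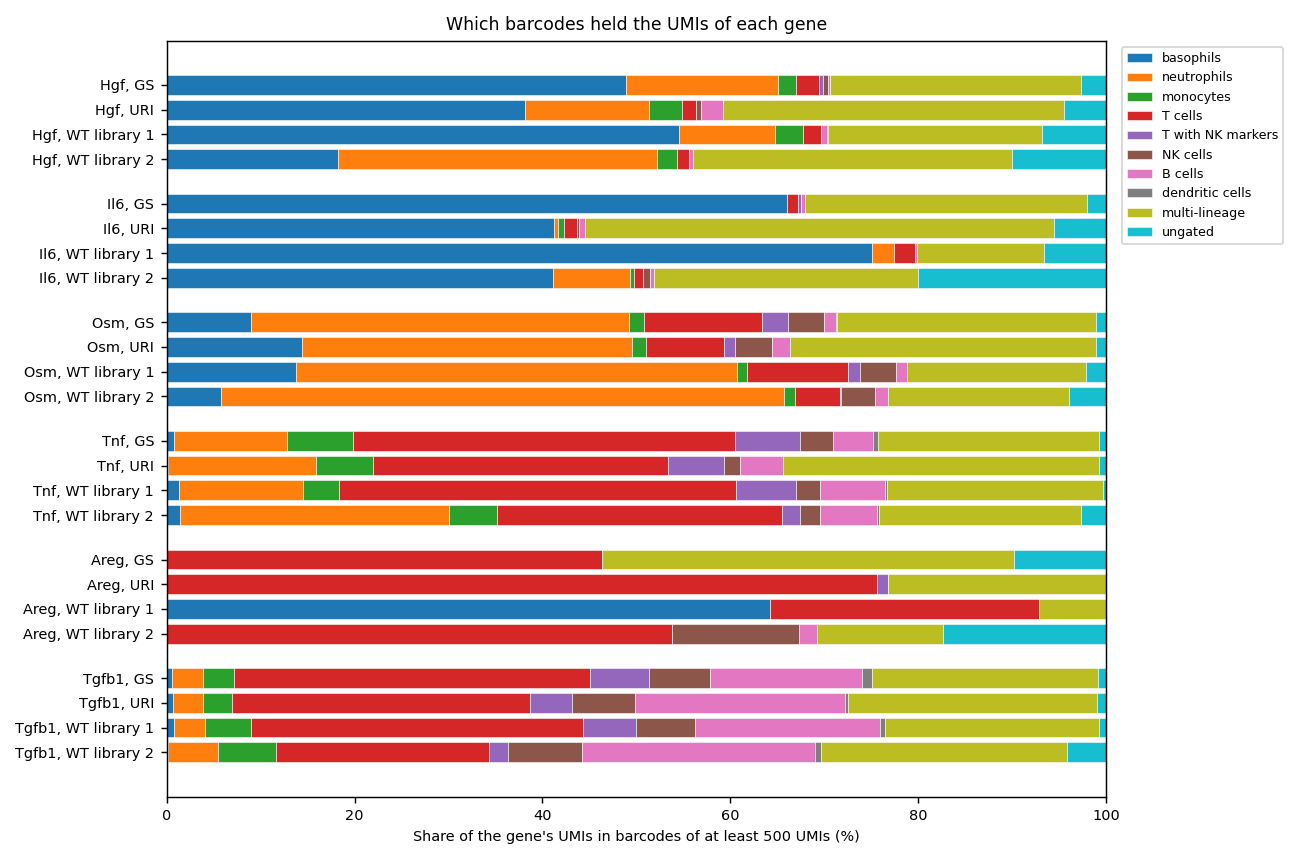
Share (percent) of the UMIs of each gene found in each lineage, 1 stacked bar per library, with multi-lineage and ungated barcodes shown. Basophils fill a large part of the Il6 and Hgf bars, neutrophils of the Osm bars, and T cells of the Tnf and Tgfb1 bars.

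Hgf, Il6 and Osm were found together in single basophils. All 3 were detected in 18 of 26 (GS), 22 of 38 (URI), 30 of 42 and 8 of 17 (WT libraries 1 and 2) basophils. Hgf with Osm but no Il6 was found in 6, 12, 10 and 2, and none of the 3 in 1, 0, 0 and 0. The type 2 cytokine Il4 was detected in 16, 16, 30 and 9 of the basophils, and Il13 in 10, 10, 15 and 7. Tnf was detected in 3, 5, 8 and 6 basophils, of which 3, 4, 7 and 6 also held Il6.

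Tnf, the other priming cytokine (chr17:35199381-35202007, minus strand), had its highest level (CPM) in monocytes in 3 of the 4 libraries and was spread over more lineages. Monocytes held 959.7 CPM (GS), 705 CPM (URI), 231 and 436 CPM (WT libraries 1 and 2). Neutrophils held 211, 278, 139 and 375 CPM, and T cells 96.0, 103, 60.0 and 178 CPM. Within each library the monocyte level lay above the neutrophil level, although across libraries the ranges overlapped. Neutrophils minus monocytes was -0.27 (edgeR adjusted p = 0.413) with TMM scaling, which did not pass, and -1.23 (edgeR adjusted p = 0.000283) without it. Free RNA held 111, 129, 74.0 and 190.5 CPM of Tnf, above the T cell values, and its part in the T cell level was not tested. Monocyte Tnf exceeded the mean of the other lineages without basophils by 2.77 on the log2 scale (SE 0.17, edgeR adjusted p = 2.53e-13), and neutrophil Tnf did so by 2.48 (SE 0.15, edgeR adjusted p = 3.42e-14).

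Basophil Tnf came from few barcodes, with 248, 46.1, 148 and 1018 CPM from 33, 10, 30 and 55 UMIs in 3, 5, 8 and 6 barcodes. In WT library 2, where basophil Tnf stood above monocyte Tnf, the 3 richest barcodes held 89.1% of it. Monocytes exceeded basophils by 1.08 (edgeR adjusted p = 0.0283), and basophils minus neutrophils was -0.81 (edgeR adjusted p = 0.0862) with TMM scaling and 0.03 without it. T cells, the most numerous lineage, carried 40.7%, 31.5%, 42.2% and 30.3% of Tnf UMIs, and monocytes 7.04%, 6.04%, 3.87% and 5.10%. Among T cells, Tnf was higher with Cd4 and neither Cd8 nor Foxp3 (106, 127, 82.2 and 223 CPM) than with Cd8 (75.3, 72.6, 46.5 and 86.1 CPM) in all 4 libraries. T cells with none of these genes detected held 139, 133, 76.9 and 273 CPM, and the split was made after seeing the data and is given without a test. NK cells (20.4 to 49.9 CPM) and B cells (32.1 to 56.7 CPM) held the least Tnf, and their difference did not pass the threshold (0.26, edgeR adjusted p = 0.491).

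Tgfb1, the proliferation-restraining member (chr7:25687002-25705077, plus strand), was found in every lineage and was highest in monocytes. Monocytes held 1129 CPM (GS), 705 CPM (URI), 1035 and 1218 CPM (WT libraries 1 and 2). B cells held 356, 364, 320.1 and 529.6 CPM, and basophils 391, 392, 325 and 296 CPM. T cells held 219, 206, 176 and 306 CPM and neutrophils 143, 111, 119 and 157 CPM, beside 262, 246, 234 and 405 CPM in free RNA, whose part in these levels was not tested. No monocyte value overlapped those of another gated lineage that was tested. Monocyte Tgfb1 exceeded the mean of the other lineages without basophils by 2.13 (SE 0.10, edgeR adjusted p = 2.60e-16) and B cells alone by 1.60 on the log2 scale. B cells and basophils did not differ beyond their spread (-0.32, edgeR adjusted p = 0.148). Neutrophils stood above T cells with TMM scaling (T cells minus neutrophils -0.54, edgeR adjusted p = 0.000895) and below them without it (0.76, edgeR adjusted p = 2.62e-06), so no direction is given. The call for basophils (0.48, SE 0.15, edgeR adjusted p = 0.0147) was lost without scaling (0.34, edgeR adjusted p = 0.0631).

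Counted over the genes, monocytes were called higher for 5 of 5 tested genes and neutrophils for 4 of 5, where 26.3% and 38.1% of 11050 genes were called higher. Once basophils were in the fit, monocyte Il6, with 0 UMIs in 2 libraries and levels under free RNA, was not called with TMM scaling (0.86, edgeR adjusted p = 0.431) or without it (0.86, edgeR adjusted p = 0.436). The exception in neutrophils was Tgfb1, at -0.20 on the log2 scale (edgeR adjusted p = 0.0839), which was called lower without TMM scaling in the fit with basophils (-1.44, edgeR adjusted p = 4.36e-13). T cells were called lower for 4 of 5 genes (29.4% of all genes lower), NK cells for 4 of 5 (25.9%), T cells with NK markers for 3 of 5 (26.1%) and B cells for 3 of 5 (30.2%). The T cell call for Tnf was lost without TMM scaling once basophils were in the fit (-0.38, edgeR adjusted p = 0.101). Between single pairs of lineages, the share of all genes called was 37.0% for basophils and monocytes, 43.6% for basophils and neutrophils and 62.3% for neutrophils and monocytes. It was 53.6% for monocytes and NK cells, 58.5% for monocytes and B cells, 82.7% for neutrophils and T cells, and 27.2% for T cells with NK markers and NK cells.

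Receptor genes of these ligands were mostly higher in monocytes, and part of them were lower in basophils. Some were also higher in neutrophils, T cells or B cells. Differences of receptor and pathway genes are log2 differences from the mean of the 6 other lineages, basophils included, and those named passed the edgeR test. Of 13 receptor genes, 10 could be tested, and 8 were higher and 1 lower in monocytes (median log2 difference 3.00, against -0.02 for all genes), where 26.0% of all genes were called higher. In basophils 2 were higher and 5 lower (median -1.28, against -0.32 for all genes), where 17.2% of all genes were called lower. Il6ra, the ligand-binding Il6 receptor, held 391, 379, 429 and 558 CPM in monocytes and 15.0, 0, 9.84 and 37.0 CPM in basophils (GS, URI, WT libraries 1 and 2). The Tnf receptor Tnfrsf1a differed by 4.93 in neutrophils, 3.28 in monocytes and -3.69 in basophils against the mean of the other lineages, and the second Tnf receptor Tnfrsf1b by 2.05, 3.32 and -2.10. Il6ra was higher by 3.55 in neutrophils, 3.49 in monocytes and 1.93 in T cells. Lifr, which pairs with gp130, was higher in monocytes by 6.25 and in B cells by 5.02. Il6st, the gp130 gene, was higher in T cells by 2.87 and differed by -3.20 in basophils. Met, the Hgf receptor, held 13.2, 23.8, 12.7 and 19.3 CPM in monocytes. Osmr, the specific receptor chain for oncostatin M, had no UMI in any of the gated lineages.

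Of 19 activators and carriers that process the ligands, 16 could be tested. In basophils 4 were higher and 2 lower, where 16.0% of all genes were called higher and 17.2% lower. In neutrophils 8 were higher and 1 lower (37.5% and 34.2% of all genes), and in monocytes 9 were higher and 2 lower (26.0% and 19.9% of all genes). Furin, a protease that cleaves the Tgfb1 precursor, was higher in basophils by 2.04, with 624, 830.0, 767 and 1148 CPM. Rhbdf2, which carries the Tnf- and Areg-shedding protease Adam17 to the surface, was higher by 2.23 in basophils and by 3.08 in neutrophils, and St14, a membrane protease that can activate Hgf, by 3.02 in basophils. Hgfac, the Hgf activator, was called higher in basophils (7.08) from few UMIs, at 7.52 to 23.1 CPM. Thbs1, which can activate latent Tgfb1, was higher in monocytes by 7.84, with 1297, 533, 1116 and 1375 CPM, and in neutrophils by 6.72. The urokinase receptor Plaur was higher by 4.26 in monocytes and 5.66 in neutrophils, and the latent Tgfb1 anchor Nrros by 1.99 and 1.83. The integrin chain Itgav was higher by 1.45 in monocytes.

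Of 10 feedback and target genes, 4 were higher and 6 lower in basophils, beside the same 16.0% and 17.2% of all genes. Zfp36, which destabilises Tnf mRNA, was higher there by 2.45, the NF-kB inhibitor Tnfaip3 by 1.57 and the Smad repressor Ski by 1.17, while Bcl3 differed by -5.17. In monocytes the Stat3 feedback gene Socs3 was higher by 1.73 and the Tgfb1 feedback gene Smad7 differed by -1.82. Neutrophils were higher for Socs3 (3.69) and Stat3 (2.20). Of 19 other ligands of the same families 9 could be tested, and in basophils Lif, an Il6 relative, was higher (5.45) with 30.1, 198, 118 and 148 CPM, while Clcf1 differed by -1.85. Il4 and Il13, both known basophil products, were higher in basophils by 8.42 and 8.41.

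**Figure D4:**
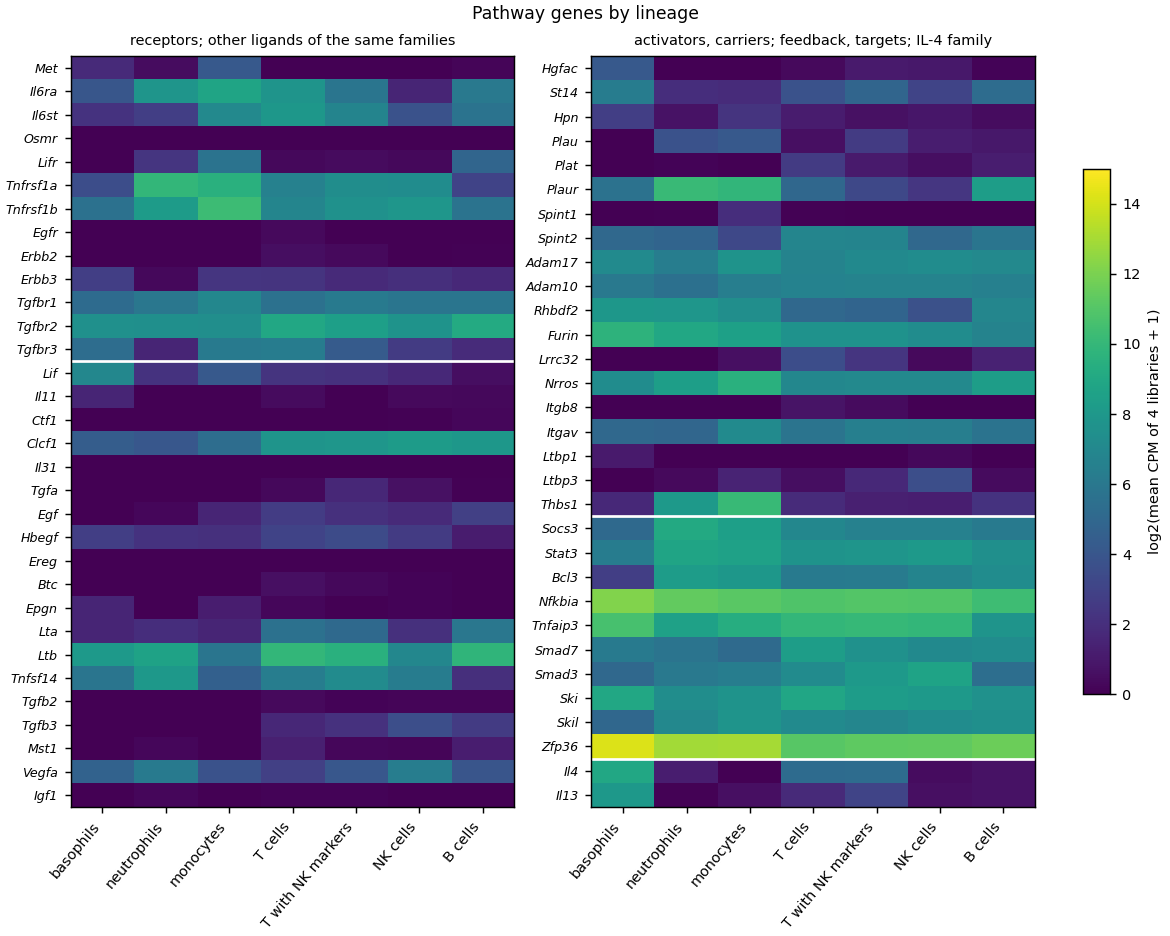
Mean level over the 4 libraries, as log2(CPM + 1), of the receptors, other ligands, activators and carriers, feedback genes and Il4 family genes (rows) in 7 lineages (columns). Il6ra, Tnfrsf1a and Tnfrsf1b are bright in monocytes and neutrophils and dim in basophils.

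Some genes followed the 6 genes closely over 28 sums (7 lineages in 4 libraries), given as Pearson's r of log2(CPM + 1). These sums share libraries and depth, and r is a description. The nearest to Hgf were Csf2rb2 (0.981), P2ry1 (0.972) and Tal1 (0.970), and to Il6 the basophil protease Mcpt8 (0.981), Ptger3 (0.973) and Cyp11a1 (0.972). Osm was followed by Hk3 (0.958), Rab44 (0.951) and Cd63 (0.950), and Tgfb1 by Pnp (0.880), Rasa4 (0.853) and Ywhag (0.842). Tnf had looser neighbours in Adam15 (0.813), Cebpb (0.809) and Tiam1 (0.792), and Areg the loosest in March2 (0.647), Zkscan6 (0.631) and Cast (0.569).

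The effect of the hepatocyte deletions on these genes was compared within each lineage and over all barcodes. Outside basophils, none of the 30 tests passed in either contrast by edgeR's quasi-likelihood test, with 3 (GS against WT) and 2 (URI against WT) at an unadjusted p under 0.05, and DESeq2 called none either. Of all genes, GS against WT called 0.0229% in neutrophils, 0.148% in monocytes, 0.0682% in basophils and 0% in the other sums. URI against WT called 0.0391% over all barcodes, 0.926% in neutrophils, 0.108% in monocytes, 0.00860% in T cells, 0.0100% in T cells with NK markers, 0.0910% in basophils and 0% in NK and B cells. The spread here comes from the 2 WT libraries alone (1 residual degree of freedom), and each single GS or URI library is assumed to vary like WT. On simulated data for GS against WT monocytes, 15.5% of genes changed 4-fold and 68.0% of genes changed 8-fold were recovered. The simulation used a fixed dispersion and did not include the real distance between the WT libraries, so recovery in the real data may differ. In sums over all barcodes, fewer cells of a type and less RNA per cell cannot be told apart.

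Monocyte Tnf was higher in level in the libraries with a hepatocyte deletion, at 959.7 CPM (GS) and 705 CPM (URI), against 231 and 436 CPM in WT libraries 1 and 2. The GS and URI values lay above both WT values, but neither difference from WT passed the threshold. How many of all genes show this order of libraries in monocytes was not counted. The log2 difference from WT was 1.53 for GS (SE 0.44, edgeR adjusted p = 0.147) and 1.04 for URI (SE 0.44, edgeR adjusted p = 1.00). Without WT library 1 these were 1.12 and 0.62, and without WT library 2 they were 2.15 and 1.65. Over 7 other settings they ranged from 1.08 to 1.54 (GS) and from 0.98 to 1.35 (URI), and no setting gave a call. The summed neutrophil markers in monocytes were 450.1, 337, 421 and 412 CPM in the same order of libraries, whose part in the difference was not tested. At least 1 Tnf UMI was found in 63.4% (GS) and 72.3% (URI) of monocytes, against 50.9% and 55.9% in WT libraries 1 and 2, at medians of 7435, 5429, 6146 and 4848 UMIs per barcode. With each barcode thinned to 1500 UMIs (5, 6, 2 and 20 shallower ones left out), the shares were 33.3% (GS) and 49.4% (URI), against 30.9% and 34.1% in WT, and the GS share did not lie above both WT shares. Thinned to 500 UMIs, with no barcode left out, they were 29.3% (GS) and 24.1% (URI), against 8.77% and 16.7% in WT. Monocyte Osm ran the same way, at 225 CPM (GS) and 154 CPM (URI), against 139.6 and 75.2 CPM in WT (log2 difference 1.12, SE 0.44, edgeR adjusted p = 0.826 for GS, and 0.52 for URI). Among monocytes with Osm, Tnf was also detected in 16 of 17 (GS) and 19 of 23 (URI), against 11 of 22 and 9 of 18 in WT libraries 1 and 2, without matching of depth. Tgfb1 did not follow, with 1129 CPM (GS) and 705 CPM (URI), against 1035 and 1218 CPM in WT monocytes.

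Basophil Hgf, Il6 and Osm did not pass for either deletion. Hgf of the GS (1504 CPM) and URI (1180.4 CPM) basophils lay around that of WT (1471 and 778 CPM), with a wide gap between the WT libraries. A basophil call was made for Tnf in URI against WT alone (log2 difference -3.65, SE 0.78, edgeR adjusted p = 0.0111), where 0.0910% of genes were called. The difference was -1.49 without WT library 2, in which 3 barcodes held 89.1% of basophil Tnf. The call was lost with at least 1000 UMIs per barcode, with at least 3 markers a gate, and with DESeq2. Outside basophils the lowest adjusted p for URI was 0.269 by edgeR, for neutrophil Il6 (-3.20, SE 1.15), which held 3 UMIs in the URI library, against 10 and 34 in WT libraries 1 and 2. The 10 UMIs of WT library 1 came from 1 barcode, and every neutrophil Il6 level lay below free RNA.

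**Figure D5:**
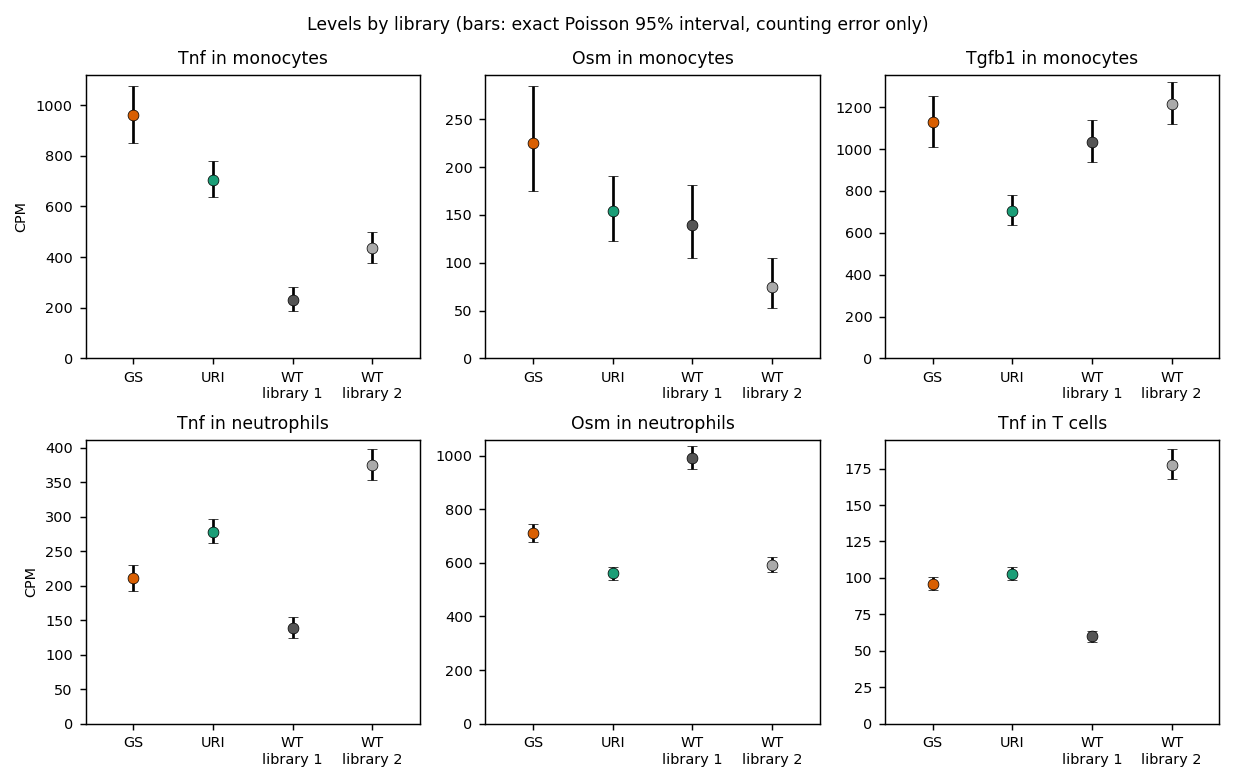
Level (CPM) of Tnf, Osm and Tgfb1 in monocytes, Tnf and Osm in neutrophils and Tnf in T cells, 1 point per library in the order GS, URI, WT, with exact Poisson 95% intervals that cover counting error only. The GS and URI points lie above both WT points for monocyte Tnf and Osm, and WT libraries differ from each other by more than their intervals for neutrophil Tnf.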

How the data were processed

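Per the labels' protocols, digested livers were separated on Percoll, and sorted CD45+ cells were fixed, hybridised to mouse probe sets and multiplexed. The deposited matrices hold whole-number UMI counts per gene and barcode, not normalised, made with Cell Ranger 8.0.0 against mm10 per the submitters' processing notes. Probes measure ligation at fixed sites, not full transcripts.

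Barcodes of at least 500 UMIs were kept (93.9% to 95.6% of UMIs), and 59 deprecated entries (0.0648% of UMIs) left out. Free RNA is the sum of barcodes under 100 UMIs. Doublets were not removed in the main analysis. Multi-lineage barcodes were left out of the lineages there but stayed in the sums over all barcodes. An alternative without Scrublet doublets (4.64% to 5.08%) was run. Scrublet's automatic threshold failed in WT library 1, where the mean threshold of the other libraries (0.189) was used. For sums of UMIs per library and lineage, edgeR's quasi-likelihood test was used (TMM, filterByExpr, library as a term, Benjamini-Hochberg at 0.05) in lineages of at least 20 barcodes in each library. Basophils (17 in WT library 2) missed that limit. A fit with a limit of 10 barcodes, chosen after seeing the barcode counts, added them, and neighbour orders and all basophil values come from it. All 4 libraries entered, whatever their group. In the lineage fits the library term takes up overall differences between pools. Their p-values measure how lineage differences vary from library to library, which may be partly technical. In the genotype fits p-values rest on the spread between the 2 WT libraries. Lineages of 1 library share its pool, so the library block pairs them. Confidence intervals reflect counting error alone. On simulated data the basophil comparison recovered 23.5% of genes changed 2-fold and 89.0% of genes changed 4-fold. Apart from the changed genes, the simulation gave all lineages and libraries the same mean per gene and a fixed dispersion. It thus lacks the lineage and library differences of the real data, where recovery may differ.

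Genes named were all 6 members, up to 4 members per pathway list with the smallest adjusted p, and the 3 genes nearest each member by Pearson's r among genes of at least 20 CPM. The members and lists were chosen with earlier results of these data known. The Areg barcodes, T cell subsets, barcodes with basophil genes outside the gate, and Osm with Tnf were chosen after seeing the data. Gene positions are from GENCODE M21 on GRCm38 and sequences from RefSeq GRCm38.p6. Alternatives were a higher UMI minimum, gene and mitochondrial filters with doublets removed, and at least 3 markers a gate. In the lineage fits, multi-lineage barcodes were also assigned to the lineage whose markers they matched best. Other alternatives were no scaling, DESeq2 size factors, the DESeq2 test, no filter on low counts, thinning, and leaving out each library. Fits ran in R 4.3.3 with DESeq2 1.42.0, limma 3.58.1 and edgeR 4.0.16, and other steps in python 3.11.15 with pandas 2.3.3, scipy 1.17.1, numpy 2.4.6, matplotlib 3.10.9, anndata 0.12.19 and scanpy 1.11.5.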

Additional observations from a re-analysis of the deposited data

How the results depend on the processing

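The lineage differences of Hgf, Il6 and Osm in basophils, Hgf and Osm in neutrophils, and Tnf and Tgfb1 in monocytes kept their direction and their call under every alternative run. On the log2 scale, leaving out each library in turn gave 9.27 to 9.92 (Hgf), 11.13 to 11.52 (Il6) and 5.73 to 6.06 (Osm) in basophils, 5.56 to 6.39 (Hgf) and 5.24 to 5.59 (Osm) in neutrophils, and 2.45 to 3.05 (Tnf) and 2.05 to 2.24 (Tgfb1) in monocytes. Without the replicate block, that is without the library term, the same 7 differences were 9.46, 11.28, 5.86, 5.70, 5.46, 2.80 and 2.13, so the pairing of lineages by library changed no call. No paired analysis was possible for the genotype groups, because GS and URI had 1 library each and the labels give no pairing across groups. Thinning basophils to a fixed number of UMIs lowered the share with a UMI, over the 4 libraries. For Hgf it was 88.5% unthinned, 74.7% at 1500 UMIs and 45.0% at 500 UMIs. For Il6 it was 72.7%, 56.2% and 37.7%, and for Osm 91.6% unthinned and 68.1% at 500 UMIs. The basophil Tnf difference for URI against WT was -3.69 (edgeR adjusted p = 1.00) with at least 1000 UMIs, -2.21 (edgeR adjusted p = 0.482) with at least 3 markers a gate and -3.79 (adjusted p = 1.00) by DESeq2. Few counts lay behind the basophil values, at 17 to 42 barcodes a library, and behind Areg, at 28 to 82 UMIs.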

Other observations

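Multi-lineage barcodes were left out of the main comparisons by lineage. They entered the genotype sums over all barcodes, and an alternative assigned them to lineages. Part of the Il6 of each library lay in them, and 14 (GS), 28 (URI), 12 and 8 (WT libraries 1 and 2) of them had at least 3 of the 6 basophil genes. Those barcodes held 75.3%, 93.2%, 91.5% and 57.3% of multi-lineage Il6. Scrublet called 21.1% to 25.6% of multi-lineage barcodes doublets. Among barcodes that met no gate, 1, 2, 7 and 11 had at least 3 basophil genes and held 100%, 91.7%, 100% and 94.0% of ungated Il6. Basophils gated as above were 17, 23, 28 and 4 of the 22, 35, 45 and 6 barcodes with at least 5 Hgf UMIs, and 6, 15, 14 and 10 of the 12, 33, 19 and 24 barcodes with at least 5 Il6 UMIs.

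Dendritic cells were too few to test, at 23, 9, 7 and 21 barcodes. Their Tgfb1 level was 538, 361, 702 and 511 CPM, against 356, 364, 320.1 and 529.6 CPM in B cells. Their Lifr level was 632, 411, 483 and 295 CPM, against 36.4, 67.7, 20.3 and 79.5 CPM in monocytes. Foxp3 T cells held 77.1, 96.8, 26.4 and 117 CPM of Tnf.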
